A study of Mus musculus with 12 samples.

Results

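The 10 genes described here form the core of the mammalian circadian clock together with a direct output gene. They are Arntl (also named Bmal1), Clock, Per1, Per2, Cry1, Cry2, Nr1d1, Nr1d2, Dbp and Bhlhe41. Each was matched by Ensembl ID to its mouse symbol, all 10 were found among the 55487 genes of the count table, and all 10 were among the 15734 genes that passed the filter on low counts. They were chosen by their difference in read counts between the groups, which was already known. Their values in that comparison are therefore a description, and the count of them past a threshold, given once, supports nothing.

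The clock is a transcriptional feedback loop. ARNTL and CLOCK bind E-box sequences as a heterodimer and activate the Per and Cry genes, whose proteins return to the nucleus and repress that heterodimer. The same heterodimer activates Nr1d1 and Nr1d2, which encode the nuclear receptors REV-ERB alpha and beta. These compete with the ROR receptors for RORE sequences and repress Arntl, so that Arntl and Nr1d1 transcripts peak at opposite phases. DBP, a PAR bZIP factor, carries the rhythm to genes with D-box sequences, and the bHLH repressor encoded by Bhlhe41 (DEC2) competes at E-boxes. In the kidney, clock genes are known to influence sodium handling and glomerular filtration.

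The data are 12 mRNA libraries of MPC5, an immortalised line of mouse podocytes, the epithelial cells that wrap glomerular capillaries. Of these, 6 came from WT cells given an empty vector plasmid (vector) and 6 from cells given a plasmid for Sparc overexpression (SPARCoe), all taken 24 hours after transfection. Both groups went through transfection, and the sources used here name no promoter for the plasmid, no clock-synchronising treatment and no hour of day. With 1 time point, a difference in phase and a difference in mean level cannot be told apart. Nothing in the labels ties the libraries to separate cultures, so the spread between them may be technical. Total counts were 33051035 to 47296258 in vector and 34927871 to 47380987 in SPARCoe.

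Sparc, the targeted gene, lay between 740.9 and 772.1 CPM (read counts scaled to library size with TMM factors) in the vector libraries and between 9751.4 and 10523.5 CPM in SPARCoe (exact two-sided permutation p = 0.00216, the smallest that 6 against 6 allows). The podocyte label rests on cytoskeletal and surface markers, since Nphs1, Wt1 and Tcf21 were under 1 CPM in vector. Of 6 tested podocyte markers, 2 were higher and 3 lower in SPARCoe (edgeR adjusted p under 0.05). Over all 15734 tested genes 14.9% were higher and 14.1% lower. The summed level of 10 podocyte markers was 1921.7 to 1988.2 CPM in vector and 1747.9 to 1830.0 in SPARCoe. The summed level of 5 tubule markers was 611.5 to 646.0 CPM in vector and 461.7 to 499.9 in SPARCoe, with 4 of 4 tested lower, and its part in the results below was not tested. The leukocyte list summed to 12.1 to 16.5 CPM in vector and 10.5 to 12.1 in SPARCoe, with Adgre1 and Itgam at 0 counts in vector. That sum was carried by Csf1r, which fell from a mean of 8.30 CPM to 4.58 (edgeR adjusted p = 1.23e-10), and Cd68, at 5.54 and 6.36 CPM (edgeR adjusted p = 0.163), and its part in the results was not tested.

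Promoter windows of RefSeq (GRCm38.p6), which run from 250 bases before to 50 bases after an annotated start, were found for 9 of the 10 genes, with 13 windows in all. Per2 had no entry. Some windows that hold clock sequences follow, 5′ to 3′, with the matched letters in capitals: the RORE core of Arntl, the E-boxes of Per1, Cry1 and Bhlhe41, with an E-prime box in Cry1, and, for comparison, the RORE core of Nfil3 and the D-boxes of Per3, both described further on.
Arntl, start 2, chr7:113207261-113207560, plus strand: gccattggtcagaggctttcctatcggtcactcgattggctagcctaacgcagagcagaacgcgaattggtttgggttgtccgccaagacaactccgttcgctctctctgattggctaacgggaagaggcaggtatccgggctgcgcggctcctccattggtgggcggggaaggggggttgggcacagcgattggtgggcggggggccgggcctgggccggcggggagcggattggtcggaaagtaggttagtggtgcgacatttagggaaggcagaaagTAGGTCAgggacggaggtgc
Per1, start 1, chr11:69098699-69098998, plus strand: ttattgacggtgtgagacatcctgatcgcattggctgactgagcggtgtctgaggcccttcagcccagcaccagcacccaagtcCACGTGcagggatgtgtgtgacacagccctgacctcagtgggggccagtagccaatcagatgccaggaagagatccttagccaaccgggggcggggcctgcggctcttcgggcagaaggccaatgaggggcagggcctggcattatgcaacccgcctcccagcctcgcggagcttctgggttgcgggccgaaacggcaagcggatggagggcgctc
Cry1, chr10:85185005-85185304, minus strand: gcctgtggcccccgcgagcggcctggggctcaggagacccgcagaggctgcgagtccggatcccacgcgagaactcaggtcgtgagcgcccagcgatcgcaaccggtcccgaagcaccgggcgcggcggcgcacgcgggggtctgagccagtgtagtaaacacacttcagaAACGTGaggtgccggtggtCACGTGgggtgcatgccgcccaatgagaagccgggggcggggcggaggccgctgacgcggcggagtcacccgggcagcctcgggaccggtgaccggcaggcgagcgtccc
Bhlhe41, chr6:145865371-145865670, minus strand: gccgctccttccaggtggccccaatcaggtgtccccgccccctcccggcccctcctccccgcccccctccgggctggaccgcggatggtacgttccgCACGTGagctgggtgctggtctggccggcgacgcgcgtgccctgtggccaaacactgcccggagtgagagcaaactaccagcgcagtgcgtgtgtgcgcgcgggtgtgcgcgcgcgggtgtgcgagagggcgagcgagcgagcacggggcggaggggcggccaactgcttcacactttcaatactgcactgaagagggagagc
Nfil3, chr13:52980990-52981289, minus strand: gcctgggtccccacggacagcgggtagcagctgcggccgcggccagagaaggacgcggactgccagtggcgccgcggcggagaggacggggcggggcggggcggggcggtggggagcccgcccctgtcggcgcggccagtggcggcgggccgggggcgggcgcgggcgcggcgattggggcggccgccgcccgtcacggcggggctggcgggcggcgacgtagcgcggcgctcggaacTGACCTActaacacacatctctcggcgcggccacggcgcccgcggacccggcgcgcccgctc
Per3, chr4:151044616-151044915, minus strand: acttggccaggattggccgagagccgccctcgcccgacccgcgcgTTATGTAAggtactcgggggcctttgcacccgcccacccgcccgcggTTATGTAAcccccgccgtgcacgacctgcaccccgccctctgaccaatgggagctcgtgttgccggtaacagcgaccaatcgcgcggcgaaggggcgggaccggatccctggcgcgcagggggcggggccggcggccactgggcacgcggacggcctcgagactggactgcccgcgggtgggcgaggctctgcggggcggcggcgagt

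The E-box was searched as CACGTG, which reads the same on both strands. It was found in 3 of the 9 genes with a window and in 8.09% of all 27025 genes with such windows (7.15% of 32851 windows). In Per1 it began 166 bases before the start, in Bhlhe41 153 bases before, and in Cry1 60 bases before. The variant CACGTT was also searched, on both strands, and is called the E-prime box here. It was present in Cry1, Cry2 and Nr1d1 and in 5.44% of all genes (4.68% of windows). In Nr1d1 it began 28 bases before the start, and in Cry1 79 bases before, next to the E-box.

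The RORE core was searched as TAGGTCA and as TGGGTCA, on both strands. TAGGTCA was found in Arntl alone among the 9 genes, 30 bases after the second annotated start, against 2.97% of all genes (2.61% of windows), and TGGGTCA in none of them, against 4.57% of genes (3.98% of windows). The D-box (TTANGTAA, both strands; 2.72% of genes and 2.32% of windows) and the cAMP response element (TGACGTCA; 2.03% of genes and 1.79% of windows) were not in any of the 13 windows. The windows of Clock, Nr1d2 and Dbp held no match to any of the motifs. These matches describe the letters of the windows only.

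**Figure D1:**
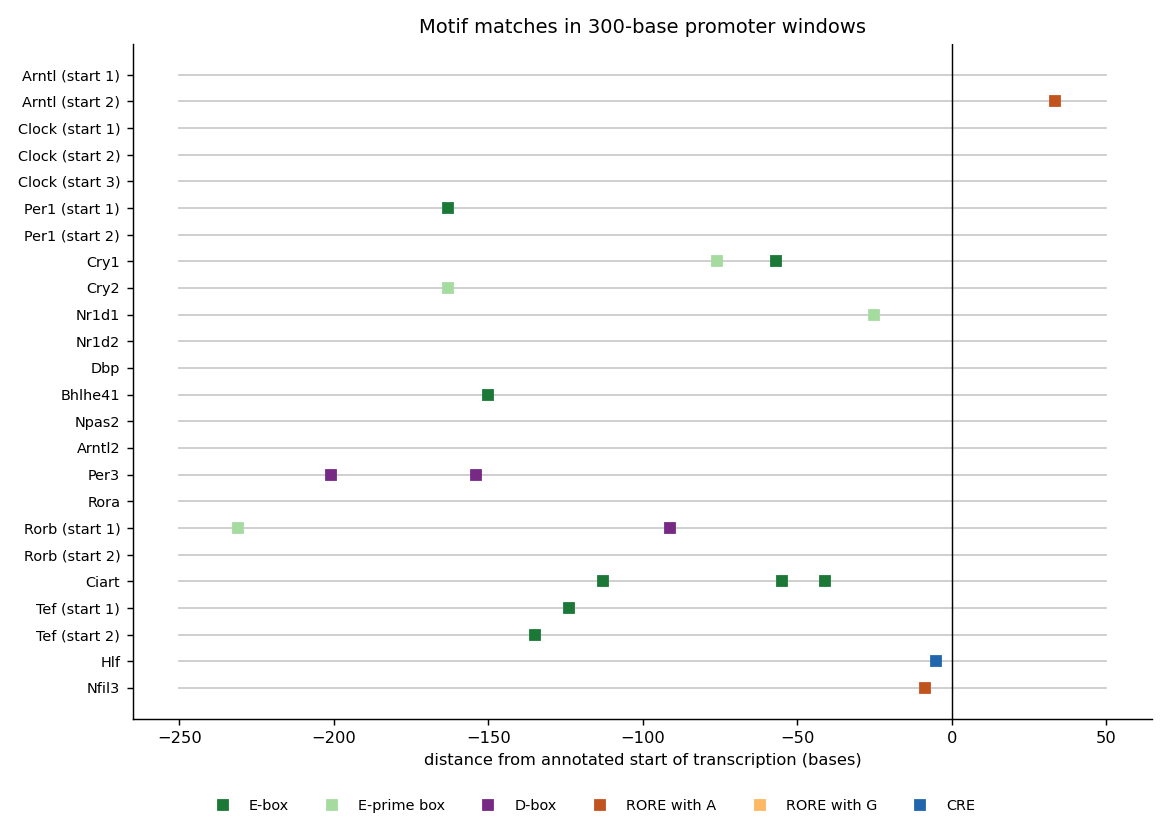
Positions of motif matches in the promoter windows of the clock genes and of further loop and PAR bZIP genes, as distance in bases from the annotated start; each square is the middle of a match and each grey line a window of 300 bases. Arntl and Nfil3 hold the RORE core TAGGTCA. Among the clock genes Per1, Cry1 and Bhlhe41 hold an E-box, and among the further genes Ciart and Tef do.

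Per gene length, the clock genes spanned a wide range of levels. Nr1d2 was the most abundant in the vector libraries at 30.3 ± 1.38 FPKM (the authors' value per gene length and library total). Throughout, ± after a level or ratio is the SD over 6 libraries and after a log2 fold change the SE. Dbp was the least abundant at 3.08 ± 0.417 FPKM. Clock stood at 27.0 ± 0.481 FPKM, 1.99 ± 0.0499 times the level of its partner Arntl (13.6 ± 0.298 FPKM) within a library. Per1 stood at 23.4 ± 1.29 and Per2 at 4.07 ± 0.218 FPKM, so Per1 was the more abundant of that pair. Cry1 at 18.9 ± 0.771 FPKM was likewise above Cry2 at 9.18 ± 0.56 FPKM. From the top the order was Nr1d2, Clock, Per1, Nr1d1, Cry1, Arntl, Bhlhe41, Cry2, Per2 and Dbp. Among neighbours in that order the library ranges overlapped for Per1 with Nr1d1, Nr1d1 with Cry1 and Bhlhe41 with Cry2, and did not overlap for the rest.

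In SPARCoe the order of FPKM levels differed in the middle. Arntl ranked above Nr1d1, with 16.6 ± 1.18 against 15.7 ± 0.972 FPKM and overlapping ranges, while in vector Nr1d1 had been at 21.1 ± 1.54 FPKM. Cry1 at 19.9 ± 1.46 and Per1 at 19.9 ± 1.41 FPKM were level. Nr1d2 and Clock remained at the top and Per2 and Dbp at the bottom in both groups.

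**Figure D2:**
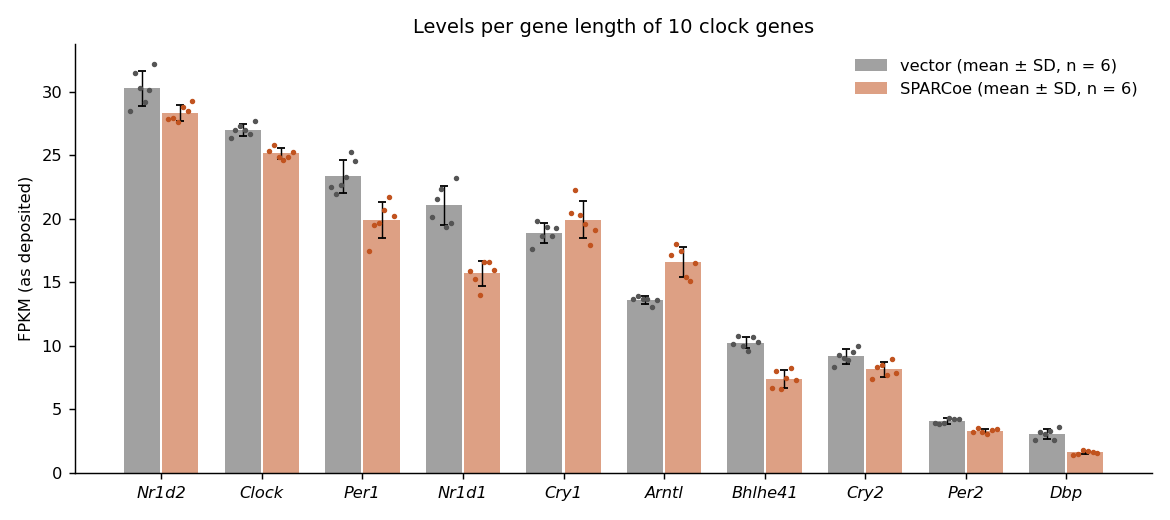
Deposited FPKM of the 10 clock genes, ordered by the vector mean; bars are means, error bars SD and dots the 6 libraries of each group. Dbp stands lowest in both groups, at 3.08 FPKM in vector and 1.61 FPKM in SPARCoe, and Arntl and Cry1 are the genes with the taller SPARCoe bar.

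Across the 10 genes, 9 passed the edgeR threshold (adjusted p under 0.05), 1 higher (Arntl) and 8 lower, and Cry1 did not pass. Over all 15734 tested genes the same threshold was passed by 29.1%, with 14.9% higher and 14.1% lower, and among genes with a mean of at least 1 CPM by 32.1% (14.8% higher and 17.2% lower). The 6 SPARCoe and 6 vector libraries did not overlap in CPM for 7 of the 10, of which 6 were lower, against 15.6% of all tested genes (8.57% higher and 7.04% lower). The choice of genes used this contrast, so nothing is read from these counts. The median log2 fold change of the 10 was -0.20, and that of all tested genes -0.0033. In bulk RNA, fewer cells expressing a gene and less RNA per cell cannot be told apart.

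Of the activators, Arntl was higher and Clock slightly lower in SPARCoe. ARNTL is the only bHLH-PAS partner of the loop whose single loss stops the mouse clock. Its transcript ran from 34.3 to 36.6 CPM in vector (median 35.9) and from 39.9 to 47.4 CPM in SPARCoe (median 44.2). Every SPARCoe library was thus above every vector library, with SPARCoe replicates 4 and 5 the closest to them. The means differed 1.22-fold, a log2 fold change of 0.29 ± 0.04. Clock, which encodes its partner, ran from 128.7 to 136.7 CPM in vector (median 132.0) and from 120.9 to 126.6 CPM in SPARCoe (median 123.3). These groups did not overlap either, although the log2 fold change was only -0.10 ± 0.02. The ratio of Clock to Arntl within a library, which does not depend on scaling between libraries, was 1.92 to 2.05 in vector and 1.42 to 1.65 in SPARCoe. Its separation of the groups follows from the levels of both genes.

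The Per genes, the light- and hormone-inducible repressors of the loop, were both lower. Per1 lay between 76.2 and 87.8 CPM in vector (median 79.6) and between 60.7 and 75.8 CPM in SPARCoe (median 69.1), with a log2 fold change of -0.23 ± 0.05. The highest SPARCoe library, replicate 5, came within 1 CPM of the lowest vector library, so the separation was narrow. Per2 lay between 11.6 and 13.0 CPM in vector (median 12.4) and between 9.25 and 10.8 CPM in SPARCoe (median 10.0), a log2 fold change of -0.30 ± 0.06. The groups stayed apart for both genes. The ratio of Per1 to Per2 within a library, 5.75 ± 0.183 in vector and 6.03 ± 0.536 in SPARCoe, overlapped between the groups.

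The cryptochromes, which bind CLOCK and ARNTL and are the stronger repressors, had values on different sides. Cry1 had 18.1 to 20.4 CPM in vector (median 19.6) and 18.6 to 22.9 CPM in SPARCoe (median 20.5). The groups overlapped, 5 of 6 SPARCoe libraries were above the vector median, and the log2 fold change was 0.07 ± 0.05. Cry2 had 17.8 to 21.5 CPM in vector (median 19.6) and 15.9 to 19.2 CPM in SPARCoe (median 17.4). All 6 SPARCoe libraries were below the vector median but only 3 below the lowest vector library, and the log2 fold change was -0.17 ± 0.05. The ratio of Cry1 to Cry2 within a library was 1.93 to 2.18 in vector and 2.01 to 2.75 in SPARCoe, with overlap.

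**Figure D3:**
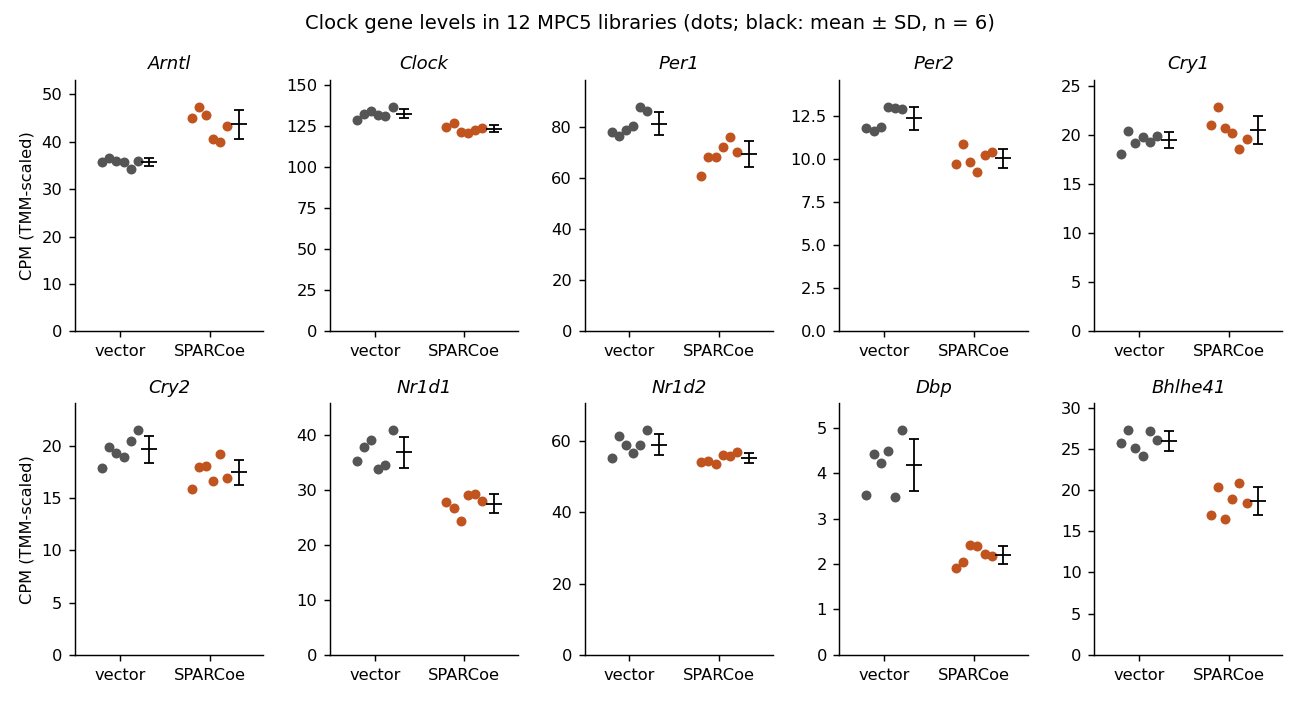
CPM of each clock gene in every library (dots) with the mean ± SD of 6 libraries in black, on axes that start at 0. The groups do not overlap for Arntl, Clock, Per1, Per2, Nr1d1, Dbp and Bhlhe41, and overlap for Cry1, Cry2 and Nr1d2.

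Of the REV-ERB genes, Nr1d1 was clearly lower and Nr1d2 by much less. Nr1d1, the stronger oscillator of the pair in most tissues, ran from 33.8 to 40.9 CPM in vector (median 36.6) and from 24.4 to 29.2 CPM in SPARCoe (median 27.9). Its means differed by -25.4%, a log2 fold change of -0.42 ± 0.05, with a clear gap between the groups. Nr1d2 ran from 55.2 to 62.9 CPM in vector (median 58.8) and from 53.4 to 56.9 CPM in SPARCoe (median 55.1), with a log2 fold change of -0.10 ± 0.03. Its groups overlapped, with 3 of 6 SPARCoe libraries below the lowest vector library. The ratio of Nr1d2 to Nr1d1 within a library was 1.36 to 1.53 in vector and 1.72 to 1.97 in SPARCoe, without overlap. Nr1d1 levels alone already did not overlap, so this ratio is no separate result.

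Dbp showed the widest difference of the 10. It had 138 to 232 counts per library in vector and 71 to 115 in SPARCoe, the lowest depth of the set. In CPM it ran from 3.48 to 4.94 in vector (median 4.32) and from 1.91 to 2.42 in SPARCoe (median 2.19). No SPARCoe library reached the lowest vector library, and the means differed 1.91-fold. The log2 fold change was -0.93 ± 0.12, and -0.64 on the log2(FPKM + 1) scale, which understates changes of low genes.

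Bhlhe41 encodes a repressor that also limits Arntl and Clock activity at E-boxes. It lay between 24.1 and 27.2 CPM in vector (median 25.9) and between 16.5 and 20.9 CPM in SPARCoe (median 18.6). The groups did not overlap, although the SPARCoe libraries spread more (coefficient of variation 9.41%, against 4.61% in vector), with a difference of the means of -28.0% and a log2 fold change of -0.48 ± 0.05. Its close relative Bhlhe40 (DEC1) did not pass the test, with vector at 48.4 ± 1.06 and SPARCoe at 49.6 ± 3.36 CPM (log2 fold change 0.03 ± 0.04, edgeR adjusted p = 0.581).

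Arntl and its repressor gene Nr1d1 thus lay on opposite sides. Within single libraries the ratio of Arntl to Nr1d1 FPKM was 0.587 to 0.706 in vector (median 0.653) and 0.911 to 1.25 in SPARCoe (median 1.06). The ratio of Arntl to Dbp was 3.77 to 5.25 in vector (median 4.34) and 8.79 to 12.2 in SPARCoe (median 10.0). Neither ratio overlapped between the groups, with means 1.64-fold and 2.32-fold higher in SPARCoe. That separation follows from the levels of Arntl, Nr1d1 and Dbp, which did not overlap, and adds nothing to them. The ratio of Cry1 to Per2 was 4.39 to 5.19 in vector and 5.35 to 6.43 in SPARCoe, without overlap. Per2 levels alone already did not overlap, while those of Cry1 did, so this ratio is no separate result.

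**Figure D4:**
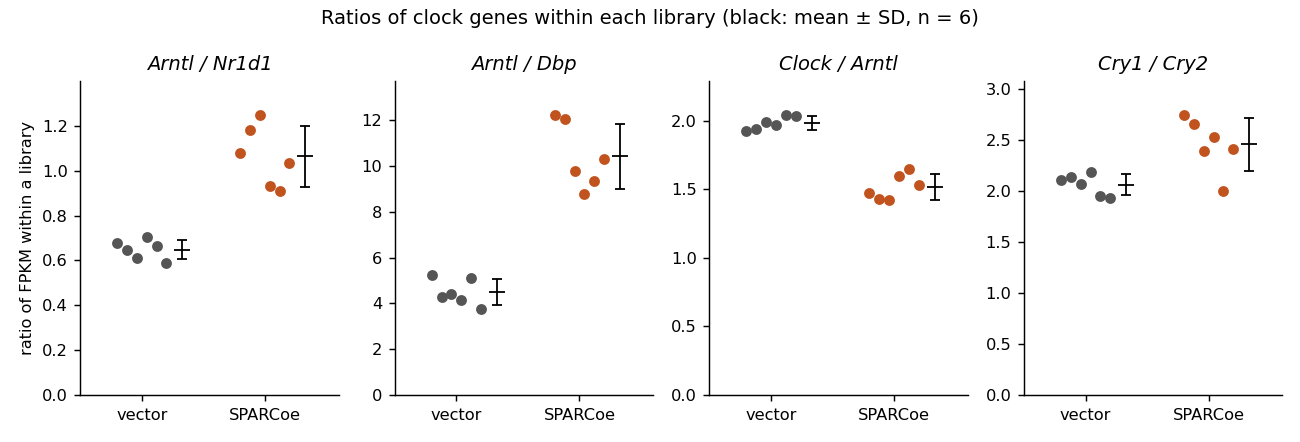
Ratios of deposited FPKM between clock genes within each library (dots), with the mean ± SD of 6 libraries in black. Arntl to Nr1d1, Arntl to Dbp and Clock to Arntl separate the groups, which follows from single-gene levels that already do not overlap. Cry1 to Cry2 does not separate them.

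Positions below are from GENCODE M21 (GRCm38), which need not be the annotation the authors used. The minus-strand gene Nr1d1 occupies 98767932 to 98775333 of chromosome 11, and 1075 of its bases overlap Thra, the thyroid hormone receptor alpha gene of the opposite strand. Thra did not pass the test, with vector at 18.6 ± 1.58 and SPARCoe at 20.5 ± 1.54 CPM (edgeR adjusted p = 0.0545). The plus-strand gene Dbp occupies 45705088 to 45710203 of chromosome 7 and shares 737 bases with Sphk2, a sphingosine kinase gene on the other strand. Sphk2 was at 23.4 ± 1.58 and 22.3 ± 1.51 CPM (edgeR adjusted p = 0.382). The strand setting of the counting is unknown, so reads of these overlaps cannot be assigned to a gene, and neither neighbour passed. Within Clock, on chromosome 5 from 76209868 to 76304792, lies the pseudogene Ube2n-ps1, with 11.2 ± 0.453 and 11.5 ± 1.03 CPM (edgeR adjusted p = 0.794). Per1, Per2, Cry1 and Nr1d2 overlapped no other gene. The genes overlapping Arntl, Cry2 and Bhlhe41 (Gm45355, D930015M05Rik and Gm43909) and the other gene inside Clock (Gm43658) averaged under 1 CPM in both groups.

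Other genes of the loop and the PAR bZIP family were tested, and some of these passed. Of 11 genes, 10 were tested, 3 rose and 1 fell, with a median log2 fold change of 0.08. Over all tested genes 14.9% were higher and 14.1% lower. Nfil3, which encodes a repressor that competes with DBP at D-boxes, rose: it lay between 29.6 and 32.5 CPM in vector (median 31.3) and between 35.1 and 37.9 CPM in SPARCoe (median 36.9). The groups did not overlap (log2 fold change 0.24 ± 0.04, edgeR adjusted p = 2.82e-06). Its promoter window holds the same RORE core as that of Arntl, beginning 12 bases before the start, on the opposite strand.

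Tef, another PAR bZIP activator and close relative of Dbp, rose where Dbp was lower. The vector libraries had 77.5 ± 3.15 and the SPARCoe libraries 89.1 ± 3.95 CPM (log2 fold change 0.20 ± 0.03, edgeR adjusted p = 8.17e-07), with a slight overlap of the groups. At 54.5 FPKM in vector it was far above Dbp. Each of its 2 promoter windows holds an E-box, beginning 127 and 138 bases before the annotated start. The third member of that family, Hlf, was at 1.39 ± 0.292 and 1.18 ± 0.218 CPM and did not pass (edgeR adjusted p = 0.369).

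Per3, a Per paralog that is not required for the rhythm, fell. It ran from 5.64 to 9.33 CPM in vector (median 8.04) and from 5.48 to 7.82 CPM in SPARCoe (median 6.24), which gives -0.30 ± 0.10 on the log2 scale (edgeR adjusted p = 0.016). The groups overlapped widely, and the call was lost without vector replicate 1 (edgeR adjusted p = 0.0663) and on FPKM values (limma adjusted p = 0.0938 to 0.181). Its window holds D-boxes beginning 205 and 158 bases before the start.

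The ROR transcripts described here, whose products activate through the RORE, were scarce. Rora rose from 0.248 ± 0.0839 to 0.574 ± 0.203 CPM with overlapping groups (edgeR adjusted p = 0.00326), on 60 counts in all vector libraries together and 143 in SPARCoe. Rorb at 1.02 ± 0.267 and 1.16 ± 0.282 CPM did not pass (edgeR adjusted p = 0.59). Arntl2, the paralog of Arntl, was at 6.29 ± 0.487 and 6.83 ± 0.566 CPM (edgeR adjusted p = 0.299). Ciart, a repressor with 3 E-boxes in its window, was at 7.12 ± 0.481 and 6.86 ± 0.795 CPM (edgeR adjusted p = 0.694). Npas2, the paralog of Clock, had 3 counts in vector and 26 in SPARCoe over 6 libraries each and was too low for the test.

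**Figure D5:**
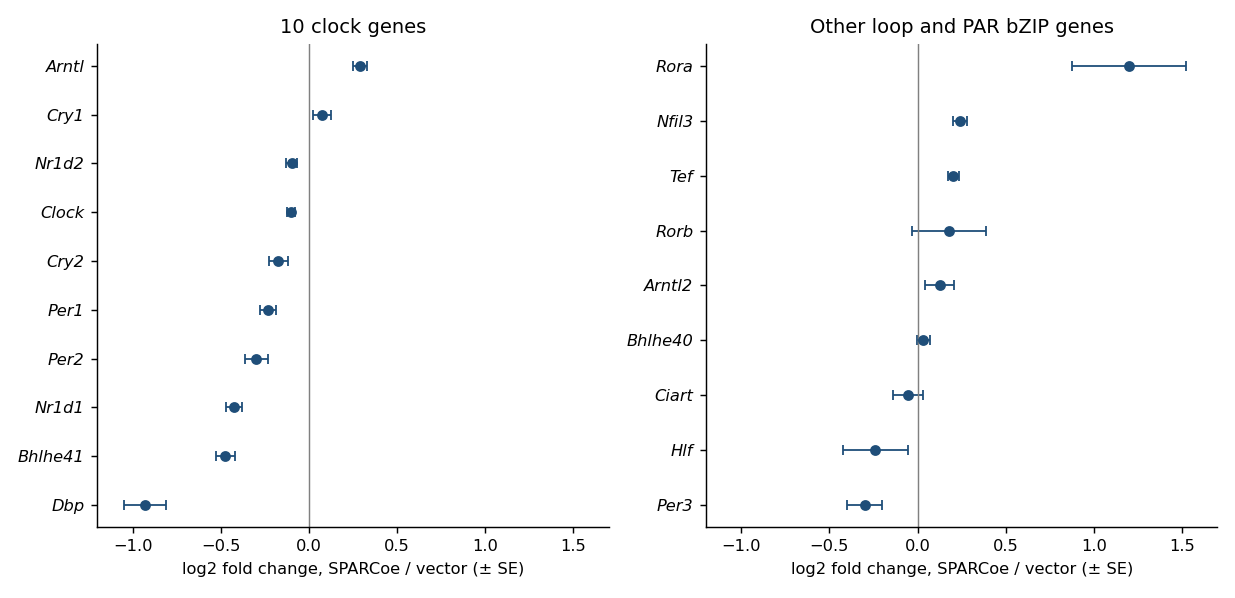
Fitted log2 fold changes of SPARCoe against vector (dots) with their SE, for the 10 clock genes and for 9 further loop and PAR bZIP genes. Dbp lies farthest to the left at -0.93, Arntl and Nfil3 to the right at 0.29 and 0.24, and Rora, with a wide error, farthest to the right.

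Of 17 tested kinases and ubiquitin enzymes that set the stability of clock proteins, 3 rose and 2 fell, a share close to the 29.1% of all tested genes, with a median log2 fold change of -0.02. Huwe1, a ubiquitin ligase with REV-ERB alpha among its substrates, fell by 0.11 ± 0.02 on the log2 scale, from a mean of 875.1 CPM to 812.5 (edgeR adjusted p = 2.29e-06). Gsk3b fell by 0.10 and Prkaa2, an AMP kinase subunit, rose by 0.15 on the log2 scale (edgeR adjusted p = 0.0112 and 0.0161). The Gsk3b call was lost without SPARCoe replicate 3 (edgeR adjusted p = 0.0526) and by limma on all FPKM values (adjusted p = 0.121), and that of Prkaa2 on FPKM values (limma adjusted p = 0.122 to 0.13). The casein kinases Csnk1d and Csnk1e, which phosphorylate PER proteins, did not pass, with log2 fold changes of 0.0037 ± 0.02 and -0.03 ± 0.02 (edgeR adjusted p = 0.931 and 0.394), and were named after their values were seen.

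Of 16 co-regulators, 4 rose and 4 fell, with a median log2 fold change of 0.0011. Over all tested genes 14.9% were higher and 14.1% lower. Ncor1, the co-repressor through which REV-ERB proteins act, fell from 220.4 ± 3.82 to 198.8 ± 2.38 CPM, and Nono, a partner of PER proteins, from 608.5 ± 7.89 to 550.0 ± 7.18 CPM (edgeR adjusted p = 1.19e-07 and 5.18e-09). Cipc, which encodes a repressor that binds CLOCK, rose from 39.4 ± 2.32 to 44.6 ± 1.23 CPM, and Wdr5, a histone methyltransferase subunit found with PER1, from 110.8 ± 1.71 to 119.6 ± 2.48 CPM (edgeR adjusted p = 0.000215 and 0.000345). These 4 genes differed by at most 1.13-fold.

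Among 11 genes known as clock-controlled outputs, 8 were tested, 4 rose and 0 fell by edgeR. The counts were also 4 and 0 at an unadjusted p under 0.05, and by DESeq2. Over all tested genes 14.9% were higher and 14.1% lower. The list was chosen with earlier results known, so nothing is read from its count. Klf10, a transcription factor gene, rose from 41.6 ± 1.61 to 56.5 ± 2.41 CPM, and Nampt, the rate-limiting enzyme of NAD salvage, from 114.0 ± 4.59 to 139.9 ± 4.92 CPM (edgeR adjusted p = 4.99e-14 and 3.9e-12). Lonrf3 rose from 2.79 ± 0.445 to 4.39 ± 0.44 CPM and Noct, which encodes nocturnin, from 98.9 ± 3.59 to 105.0 ± 3.14 CPM (edgeR adjusted p = 1.64e-05 and 0.0143). The call of Noct was lost without vector replicate 4 (edgeR adjusted p = 0.0655) and by limma on all FPKM values (adjusted p = 0.0926). The list's median log2 fold change was 0.13, against -0.0033 over all tested genes.

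Signals that reset the clock act on the Per genes through CREB, serum response and glucocorticoid receptors. Of 11 CREB and serum response genes, 5 rose and 1 fell, with a median log2 fold change of 0.18. Over all tested genes 14.9% were higher and 14.1% lower. Crtc1, a CREB coactivator, rose from 54.6 ± 1.24 in vector to 70.7 ± 4.26 CPM in SPARCoe (edgeR adjusted p = 2e-12). The inducible genes Fos, Nr4a1 and Nr4a2 rose 2.21-fold, 1.39-fold and 2.00-fold (edgeR adjusted p = 2.94e-12, 4.04e-08 and 4.37e-12). Other inducible genes of the list, named after their values were seen, were mixed. Fosb rose 3.62-fold (edgeR adjusted p = 3.93e-06), while Egr1, Crem and Sik1 did not pass, with log2 fold changes of 0.04 ± 0.05, 0.18 ± 0.09 and -0.04 ± 0.04 (edgeR adjusted p = 0.58, 0.139 and 0.549). Of 7 tested glucocorticoid genes, 3 rose and 1 fell, beside the same shares of all tested genes, with a median of 0.03. Nr3c1, the glucocorticoid receptor gene, rose from 103.1 ± 3.92 in vector to 120.2 ± 4.6 CPM in SPARCoe (edgeR adjusted p = 1.63e-08). Its known targets were mixed: Errfi1 and Sgk1 rose 1.30-fold and 1.21-fold, and Dusp1 fell by 0.14 on the log2 scale (edgeR adjusted p = 1.57e-09, 2.07e-05 and 2.62e-05). The other 3 tested genes of the list did not pass, with log2 fold changes of -0.02 to 0.03 (edgeR adjusted p = 0.582 to 0.764).

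The genes whose log2 CPM followed a clock gene most closely over the 12 libraries were sought among 9126 genes with a mean of at least 10 CPM. For Arntl these were Ric8b, Sipa1l2 and Ndrg1 (Pearson r = 0.981, 0.968 and 0.965), and for Nr1d1 Capn2, Chst15 and Fgd3 (r = 0.97, 0.966 and 0.964). For Dbp they were Wdfy3, Ephx1 and Ripor2 (r = 0.983, 0.975 and 0.97), and for Per1 Cobl, Gmip and Oxa1l (r = 0.946, 0.939 and 0.938). All of these values share the step between the groups, so they describe likeness of profile over these libraries and carry no test. Ephx1, which encodes microsomal epoxide hydrolase, was at 65.1 CPM in vector and 47.2 CPM in SPARCoe on average, and Chst15 at 15.6 and 10.7 CPM.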

How the data were processed

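Poly(A)-selected RNA of 12 MPC5 libraries was measured. The authors deposited whole read counts per Ensembl gene and FPKM values for the same libraries. Each deposited FPKM equalled the count divided by the library total and 1 length per gene. The submitters' processing notes name HISAT2, Bowtie2, Picard, SAMtools, featureCounts and edgeR. No version, build, annotation or strand setting is given there, nor elsewhere in the sources used. Of counts of 1 or 2, 56.7% were 2, so read pairs may count as 2 and counting error is understated.

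Symbols matched 55141 of 55487 IDs. edgeR 4.0.16 (R 4.3.3) was used on the counts with TMM factors, filterByExpr, a robust quasi-likelihood fit of group on all 12 libraries, and Benjamini-Hochberg adjustment over 15734 genes, two-sided, with a threshold of 0.05. The SE is the log2 fold change divided by the root of F. Correlations used log2 CPM with 2 added as prior count. The fit was tested on simulated data. Sparc was tested by exact permutation. Alternatives were RLE factors, Sparc left out, other filters, DESeq2 1.42.0, limma 3.58.1 (voom, and log2 FPKM with a pseudocount of 1 or 0.1), a replicate block, and each library left out. Motifs were searched in RefSeq promoter windows.

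The genes, lists and tests were chosen with earlier results of these data known. Named were the 10 clock genes, every gene of the loop and PAR bZIP list, up to 4 passing genes of each other list by smallest adjusted p, overlapping genes, and the 3 most alike genes for Arntl, Per1, Nr1d1 and Dbp. In each of 30 within-group pairs the counts differed by more than counting noise (chi-square per degree of freedom 4 to 7.93), so no pair was taken for a library deposited in duplicate. Some genes of these lists are counted but not reported here by name.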

Additional observations from a re-analysis of the deposited data

Results flagged for a closer look

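Each of 40 sets of 6 libraries was checked for a library far from the other 5, which chance gives in about 5% of sets. Arntl in vector replicate 5 was 34.3 CPM, below the other vector libraries at 35.8 to 36.6 CPM. It lay farther from the SPARCoe libraries than they did.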

How the results depend on the processing

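All 10 clock genes kept the sign of their log2 fold change under the 10 alternatives and the 12 fits that each left out a library. Over the fits that left out a library, Arntl ranged from 0.26 to 0.31, Nr1d1 from -0.45 to -0.39, Dbp from -0.98 to -0.88 and Cry1 from 0.04 to 0.10. Dbp was -0.64 by limma on log2(FPKM + 1), against -0.93. The number of genes passing, 4571, was 3723 to 5344 under the alternatives and 4276 to 4476 with a library left out. By limma on FPKM for genes with a mean FPKM of at least 1, with a pseudocount of 1 or 0.1, 2 of the other loop and PAR bZIP genes passed in place of 4 (6 tested in place of 10), and 3 of the clock kinases and ubiquitin enzymes in place of 5. On all genes with a value, 2 of those enzymes passed. Among the loop genes, Per3 lost its call and Rora, at 0.089 FPKM in vector and 0.206 in SPARCoe, fell under the FPKM filter. Prkaa2 was among the enzymes that lost their call, and Gsk3b lost its own on all genes with a value. Why these calls were lost was not tested. Same-numbered libraries did not deviate together (correlations of -0.0106 to 0.0147 over genes), so no strong effect shared by number was seen. A weak shared effect would not show in this check. With the replicate block 4663 genes passed, 4491 of them among the 4571. Depth limits genes with few counts, such as Rora and Npas2.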

Other observations

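Within each group of 6 libraries, log2 CPM was compared for 4 pairs of clock genes, 8 relations in all, which do not use the difference between the groups. None passed after Benjamini-Hochberg adjustment. Per1 and Per2 in vector gave Pearson r = 0.829 (exact two-sided permutation p = 0.0556, adjusted 0.317) and Spearman rho = 0.829 (p = 0.0583, exact permutation, adjusted 0.233), and r = 0.88 without the 2 libraries farthest from the Per1 median. Arntl and Nr1d1 in SPARCoe gave r = -0.74 (exact permutation p = 0.0792, adjusted 0.317) and rho = -0.943 (exact permutation p = 0.0167, adjusted 0.134), and r = -0.407 without the 2 libraries farthest from the Arntl median. In vector the same pair gave r = 0.492 (exact permutation p = 0.335, adjusted 0.524) and rho = 0.771 (exact permutation p = 0.103, adjusted 0.275), and r = 0.99 without the 2 farthest libraries. The remaining 5 relations had Pearson r between -0.415 and 0.641.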
